A study of Homo sapiens with 9 samples.

Results

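The serine synthesis and one-carbon folate enzymes described here are 9 genes, PHGDH, PSAT1, PSPH, SHMT1, SHMT2, MTHFD1, MTHFD2, MTHFD1L and ALDH1L2, chosen by name among the 58347 genes of the read count table. Every one of the 9 had enough reads to be tested. RNA was sequenced from 9 libraries of K562, a human erythroleukaemia line, in which all libraries, controls included, carry the same stably expressed recruitment parts: dCas9, MS2-Fkbp(1x) and SS18-Frb, each expressed from an EF1a promoter, which is active in most cell types, with resistance markers. Binding of rapamycin links the Fkbp and Frb domains, which recruits the SS18 fusion, SS18 being a subunit of the BAF chromatin remodelling complex, to wherever the guide RNA (sgRNA) has placed dCas9.

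Cells with an sgRNA to the HBG1 promoter, a fetal globin gene, received 10 nM rapamycin (3 libraries) or DMSO, its solvent (3 libraries), for 24 h. Cells with a non-targeting sgRNA received rapamycin (2 libraries) or DMSO (1 library). The labels do not say whether the libraries came from separate cultures or clones, so p-values measure only the spread between these libraries. In RNA from whole cultures, fewer cells of a kind and less RNA per cell cannot be told apart.

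Serine is made from a glycolytic intermediate in successive steps, by PHGDH, which oxidises 3-phosphoglycerate, PSAT1, which adds the amino group, and PSPH, which removes the phosphate. SHMT1 in the cytosol and SHMT2 in mitochondria then pass a carbon of serine to the folate carrier and leave glycine. In mitochondria the carried carbon is oxidised by MTHFD2 and released as formate by MTHFD1L, or burned to CO2 by ALDH1L2, and in the cytosol MTHFD1 loads formate back onto folate for purine, thymidylate and methionine synthesis. Rapamycin inhibits mTORC1, a growth-signalling kinase complex that is known to raise ATF4, a transcription factor that acts on many of these genes.

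Promoter sequence was looked at first, because most of the 9 genes moved together. RefSeq (GRCh38.p14) promoter windows, of 250 bases before to 50 after a start, were found for 6 of the 9 genes: PHGDH, PSAT1, SHMT1, MTHFD1, MTHFD2 and MTHFD1L. Both strands were searched for TGATGNAAN, the amino acid response element bound by ATF4 with C/EBP proteins, for the cAMP response element TGACGTCA, for the E-box CACGTG and, after the sequences had been seen, for the CCAAT box. No match overlapped another, and the E-box reads the same on both strands. Matches stand in capitals in the sequences of PSAT1, the gene with the clearest change, of SHMT1, which was not called, and of the 4 others in 30-base windows around a match, because annotated exons overlap those promoters in part (55 of 250 bases in MTHFD1L) or throughout (250 of 250 in MTHFD1). Each is written 5′ to 3′ on the gene's own strand.
PSAT1 (chr9:78296875-78297124, plus strand): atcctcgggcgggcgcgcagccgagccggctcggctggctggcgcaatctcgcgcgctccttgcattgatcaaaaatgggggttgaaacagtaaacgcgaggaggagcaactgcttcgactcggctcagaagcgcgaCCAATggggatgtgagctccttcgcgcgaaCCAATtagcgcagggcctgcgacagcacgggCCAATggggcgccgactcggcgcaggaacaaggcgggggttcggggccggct
SHMT1 (chr17:18363564-18363800, minus strand): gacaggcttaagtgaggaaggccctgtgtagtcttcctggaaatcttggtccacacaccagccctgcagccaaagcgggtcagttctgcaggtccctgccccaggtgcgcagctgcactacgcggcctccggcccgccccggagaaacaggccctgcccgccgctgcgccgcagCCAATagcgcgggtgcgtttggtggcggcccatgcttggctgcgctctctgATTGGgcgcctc
MTHFD1L (chr6:150866346-150866375, plus strand): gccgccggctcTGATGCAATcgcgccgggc
MTHFD1 (chr14:64388323-64388352, plus strand): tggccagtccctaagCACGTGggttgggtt
PHGDH (chr1:119711850-119711879, plus strand): tgagtatttccgtCCAATcaaaaggagact
MTHFD2 (chr2:74198528-74198557, plus strand): catgcggcagggaCCAATgggtggcggagg

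MTHFD1L held the amino acid response element, with its first base at -129 from the first listed of its 4 starts. That element was found in 1 of the 6 windows, against 3.61% of all 35116 promoter windows in the table. An E-box was found in 2 of the 6 (MTHFD1L at -154 and MTHFD1 at -15), against 7.26% of all windows. The cAMP response element was in 0 of the 6, against 1.85%. The CCAAT box was in 6 of 6, SHMT1 included, against 34.6% of all windows, with 3 matches in PSAT1. These are matches of letters in a short window and do not show binding, and elements outside the windows were not searched.

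Library totals ran from 19797409 to 31619671 counts, and levels are given as CPM, each gene's count scaled to a common library size with TMM factors. All 11 K562 marker genes, among them haemoglobins, GATA1, TAL1 and KLF1, had counts in every library. Their summed level was 21220 to 29400 CPM with the HBG1 sgRNA under DMSO, 27910 to 38740 under rapamycin, and 34610 and 39510 to 42140 CPM with the non-targeting sgRNA under DMSO and rapamycin. The sums include HBG1, whose promoter the guide targets, and HBG2. With the HBG1 sgRNA under DMSO these averaged 296 and 430 CPM, against 8233 and 11232 CPM in the non-targeting DMSO library. Under DMSO HBE1 (8819 against 2030.5 CPM), HBA1 and HBZ also averaged higher with the HBG1 sgRNA than in that library. For HBA1 that library, at 9864 CPM, lay within the HBG1 sgRNA range of 9619.6 to 12308 CPM. Under rapamycin HBA1 averaged 12985 CPM with the HBG1 sgRNA and 13401 CPM with the non-targeting sgRNA. With the HBG1 sgRNA 4 of these 11 rose under rapamycin (HBG1, HBG2, GATA1 and ALAS2) and TFRC fell. Of 13 markers of T, B, myeloid, fibroblast and epithelial cells, 7 had counts in every library and LUM had none in any, with summed levels of 52.1 to 54.7 CPM with the HBG1 sgRNA under DMSO, 52.6 to 60.5 under rapamycin, and 57.5 and 45.4 to 54.4 CPM with the non-targeting sgRNA. EPCAM, an epithelial marker, made up most of that sum at 36.9 to 50.01 CPM, and the other 12 markers each stood at 6.04 CPM or less. Any part of these shifts in the results was not tested. Replicate 1 stood apart from replicates 2 and 3 with the HBG1 sgRNA under both treatments, with a chi-square per gene of 16.5 to 18.6 against 4.74 to 7.91 between replicates 2 and 3, and its values are given with each result they touch.

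**Figure D1:**
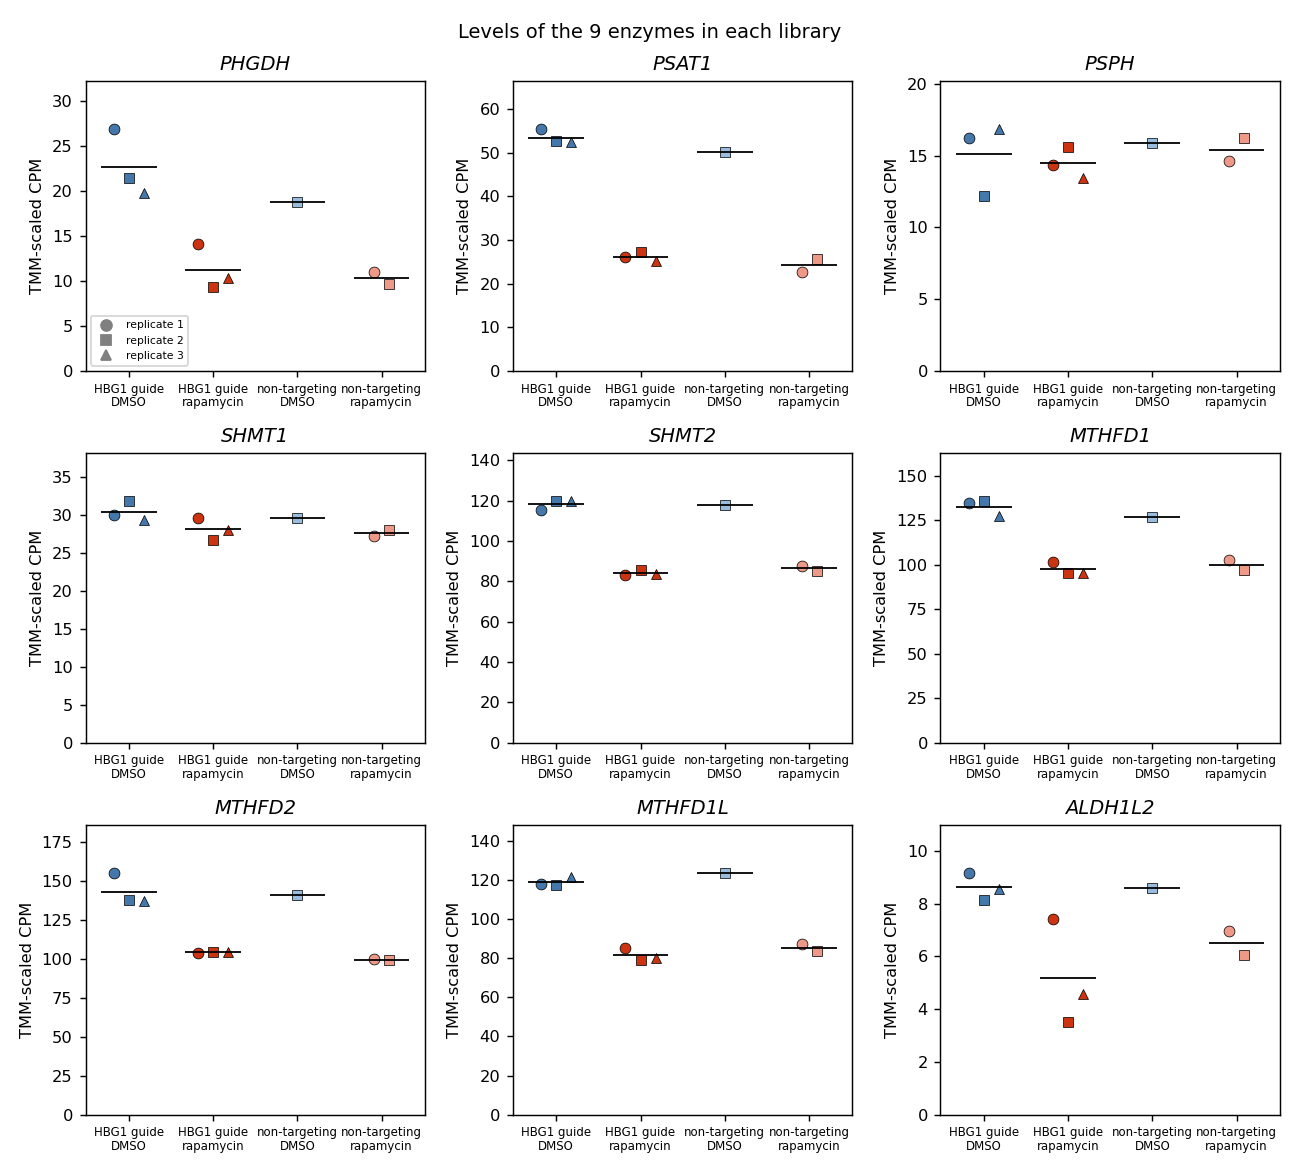
Levels of the 9 enzymes in each library, in TMM-scaled CPM on linear axes from 0. Points are libraries (circle, square and triangle for replicates 1, 2 and 3) and bars are group means; in the panels of PHGDH, PSAT1, SHMT2, MTHFD1, MTHFD2, MTHFD1L and ALDH1L2 all 5 rapamycin libraries lie below all 4 DMSO libraries, and in those of PSPH and SHMT1 they overlap.

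Rapamycin against DMSO with the HBG1 sgRNA asked what the treatment changed in cells whose guide directs the fusion to HBG1. Of the 9 enzymes, 6 fell, 0 rose and 3 did not pass the threshold, which was an adjusted p under 0.05 (quasi-likelihood test of edgeR, Benjamini-Hochberg adjustment over all 23675 genes tested). Across all those genes 6.80% were called, 2.75% higher and 4.05% lower. The median log2 fold change of the 9 was -0.49, beside 0.02 for all genes tested. The 9 were chosen with earlier results of these data known, so comparisons with all genes, here and below, are descriptions only. PHGDH and PSAT1, the first enzymes of serine synthesis, fell to about 0.49 of their DMSO level, and SHMT2, MTHFD2, MTHFD1L and MTHFD1, of the folate steps, fell to 0.68 to 0.74 of theirs.

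The serine synthesis enzymes did not all move alike. PHGDH (ENSG00000092621; chromosome 1, 119648411 to 119744226, GRCh38 in GENCODE 29) catalyses the first step. Its level was 26.8, 21.4 and 19.8 CPM in DMSO replicates 1, 2 and 3 and 14.1, 9.31 and 10.3 CPM in the rapamycin replicates. Replicate 1 was the highest under both treatments, and the groups did not overlap. The log2 fold change was -1.02 (SE 0.16, adjusted p 0.00153, edgeR), and by replicate pair it was -0.92, -1.20 and -0.94. With the non-targeting sgRNA PHGDH stood at 11.0 and 9.64 CPM under rapamycin and 18.7 CPM under DMSO.

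PSAT1 (ENSG00000135069; chromosome 9, 78297143 to 78330093), the aminotransferase of the second step, had the smallest adjusted p of the 9. It stood at 55.3, 52.6 and 52.3 CPM under DMSO, and at 26.1, 27.3 and 25.2 CPM under rapamycin. The libraries of each treatment lay close together and far from the other treatment. Its log2 fold change was -1.03 (SE 0.09, adjusted p 4.26e-05, edgeR), and -1.09, -0.94 and -1.05 in pairs 1, 2 and 3. The non-targeting libraries had 22.6 and 25.7 CPM under rapamycin and 50.03 CPM under DMSO. The 4 annotated pseudogenes of PSAT1 held at most 0.14 CPM in any library.

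PSPH (ENSG00000146733; chromosome 7, 56011051 to 56051604), the phosphatase that completes serine, was not called. Its level was 16.2, 12.2 and 16.8 CPM under DMSO and 14.3, 15.6 and 13.4 CPM under rapamycin, so the groups overlapped. The log2 fold change was -0.06 with a 95% interval of -0.36 to 0.24, which leaves room for a fall to 0.78 or a rise to 1.18 of the DMSO level. The pairs pointed in different directions, at -0.18, 0.35 and -0.32. The non-targeting libraries had 14.6 and 16.2 CPM under rapamycin and 15.8 CPM under DMSO. The table lists PSPHP1, a pseudogene of PSPH, at 1.37 to 3.41 CPM, and how the authors' counting divided reads between the copies is not given in the sources used here.

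The pair of serine hydroxymethyltransferases split by compartment. SHMT2 (ENSG00000182199; chromosome 12, 57229327 to 57234935), the mitochondrial enzyme, stood at 115, 120 and 120 CPM under DMSO and at 83.0, 85.4 and 83.4 CPM under rapamycin. No library of one treatment came near those of the other. It fell by 0.49 on the log2 scale (SE 0.07, adjusted p 5.80e-04, edgeR), to 0.71 of its DMSO level, with pair changes of -0.48, -0.49 and -0.52. Non-targeting libraries had 87.7 and 85.3 CPM under rapamycin and 118 CPM under DMSO. AC137834.2, on the opposite strand, shares 427 exon bases with SHMT2 and stood at 6.40 to 11.7 CPM.

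SHMT1 (ENSG00000176974; chromosome 17, 18327860 to 18363563), the cytosolic form, was not called, at 30.003, 31.8 and 29.3 CPM under DMSO and 29.6, 26.7 and 28.0 CPM under rapamycin. Rapamycin replicate 1 lay within the DMSO range. Its log2 fold change was -0.11, with a 95% interval of -0.31 to 0.09 that does not overlap that of SHMT2 (-0.64 to -0.35). In the non-targeting libraries it stood at 27.2 and 28.1 CPM under rapamycin and 29.5 CPM under DMSO. SMCR8, on the opposite strand, shares 196 exon bases with SHMT1. SMCR8 stood at 22.35 to 34.34 CPM and was not called (log2 fold change -0.20, adjusted p 0.437, edgeR). With no strand setting given, reads of that overlap cannot be assigned to either gene.

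**Figure D2:**
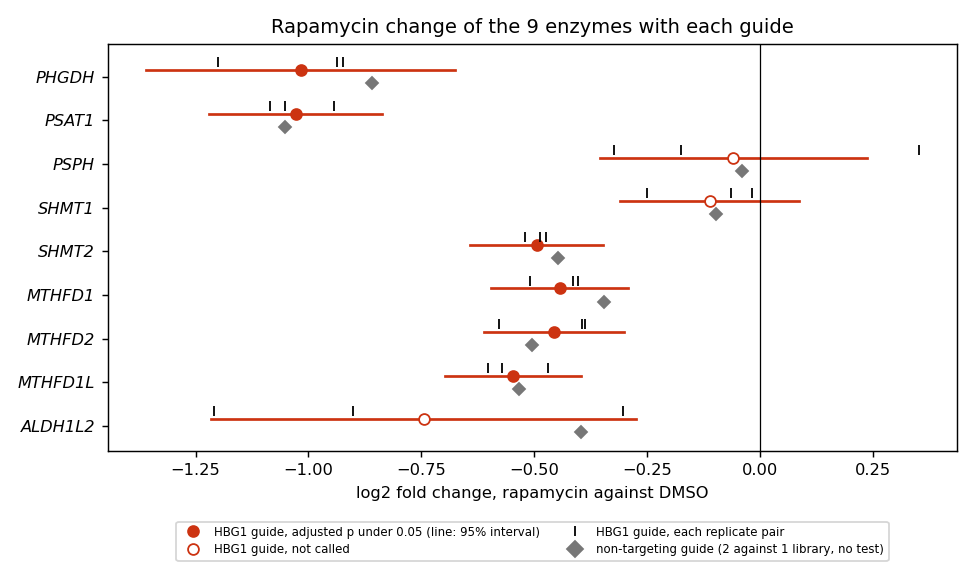
Log2 fold change of each enzyme, rapamycin against DMSO. Red circles with 95% intervals are the HBG1 sgRNA (filled where the adjusted p is under 0.05), ticks are its replicate pairs and grey diamonds the non-targeting sgRNA, 2 libraries against 1 without a test; all 18 circles and diamonds lie below 0, with PHGDH and PSAT1 near -1 and PSPH and SHMT1 near 0.

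MTHFD2 and MTHFD1L in mitochondria and MTHFD1 in the cytosol fell, while ALDH1L2 was not called. MTHFD2 (ENSG00000065911; chromosome 2, 74198562 to 74217565), the mitochondrial dehydrogenase and cyclohydrolase, stood at 155, 137 and 137 CPM under DMSO and at 104 CPM in each rapamycin replicate. DMSO replicate 1 was the highest library, and the rapamycin replicates barely differed. The log2 fold change was -0.46 (SE 0.07, adjusted p 0.00174, edgeR), and -0.58, -0.39 and -0.39 by pair. The non-targeting libraries had 99.8 and 98.9 CPM under rapamycin and 141 CPM under DMSO. MTHFD2 shares 1324 exon bases with SLC4A5 on the opposite strand (7.14 to 11.7 CPM) and 295 with AC006030.1 (69.9 to 96.1 CPM), neither of them called (log2 fold changes -0.14 and -0.22, adjusted p 0.615 and 0.143, edgeR).

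MTHFD1L (ENSG00000120254; chromosome 6, 150865549 to 151101887), the mitochondrial enzyme that frees formate, had levels of 118, 118 and 122 CPM under DMSO and 85.1, 79.2 and 80.1 CPM under rapamycin. It fell by 0.55 on the log2 scale (SE 0.07, adjusted p 3.37e-04, edgeR), to 0.68 of its DMSO level. Pair changes were -0.47, -0.57 and -0.60. With the non-targeting sgRNA it stood at 87.2 and 83.6 CPM under rapamycin and 124 CPM under DMSO. Its promoter is the window above that holds TGATGCAAT.

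MTHFD1 (ENSG00000100714; chromosome 14, 64388031 to 64463457), the cytosolic enzyme with 3 activities, stood at 135, 136 and 128 CPM under DMSO and 102, 95.4 and 95.7 CPM under rapamycin. It fell by 0.44 on the log2 scale (SE 0.07, adjusted p 0.00175, edgeR), to 0.74 of its DMSO level. The 95% intervals of MTHFD1 (-0.60 to -0.29) and MTHFD1L (-0.70 to -0.40) overlap. Non-targeting libraries had 103 and 97.3 CPM under rapamycin and 127 CPM under DMSO. AL122035.2, an antisense gene that shares 756 exon bases with MTHFD1, was called lower as well (log2 fold change -0.44, adjusted p 0.0194, edgeR) at 16.8 to 24.9 CPM, and with no strand setting given, reads of the overlap cannot be assigned to either gene.

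ALDH1L2 (ENSG00000136010; chromosome 12, 105019784 to 105084577), the mitochondrial 10-formyltetrahydrofolate dehydrogenase, was the least abundant of the 9 and the most variable under rapamycin. It stood at 9.17, 8.13 and 8.56 CPM under DMSO and 7.43, 3.52 and 4.58 CPM under rapamycin. Rapamycin replicate 1 was far above replicates 2 and 3 but still below every DMSO library. A log2 fold change of -0.75 (SE 0.22, 95% interval -1.22 to -0.28) was fitted and missed the threshold (adjusted p 0.0550, edgeR).

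The ALDH1L2 call varied with the fit. It passed as lower with DESeq2 (adjusted p 0.0202), without the filter on low counts (0.00654) and in the additive model over both guides (0.0233). With replicate number as a block on the 6 HBG1 sgRNA libraries, it passed too (-0.78, adjusted p 0.00718, edgeR), so that 7 of the 9 fell, where 17.1% of 20179 genes were called, 9.62% as lower. Without rapamycin replicate 1 it also passed (-1.08, adjusted p 0.00258), and in the other 10 alternatives it did not. The non-targeting libraries had 6.99 and 6.05 CPM under rapamycin and 8.59 CPM under DMSO. C12orf45, on the opposite strand, shares 145 exon bases with ALDH1L2. C12orf45 stood at 20.54 to 30.96 CPM and was not called (log2 fold change -0.23, adjusted p 0.336, edgeR). With no strand setting given, reads of that overlap cannot be assigned to either gene. ALDH1L1, the cytosolic relative of ALDH1L2, had 0 to 8 counts per library and was not tested.

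In 7 of the 9 genes, PSPH and SHMT1 being the exceptions, all 5 rapamycin libraries of both guides lay below all 4 DMSO libraries, as they did in 8.29% of all genes tested. With the non-targeting sgRNA alone, where 2 rapamycin libraries faced 1 DMSO library and no test was made, log2 fold changes came to -0.86 for PHGDH, -1.05 for PSAT1, -0.45 for SHMT2, -0.51 for MTHFD2, -0.53 for MTHFD1L, -0.35 for MTHFD1, -0.40 for ALDH1L2, -0.10 for SHMT1 and -0.04 for PSPH. Their median was -0.45, beside 0.03 for all genes tested.

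Whether the guide mattered was asked under rapamycin, with 3 HBG1 sgRNA libraries against 2 non-targeting ones. None of the 9 enzymes passed in edgeR's test (0 called, 0 at an unadjusted p under 0.05, and 0 called by DESeq2). Of all genes, edgeR called 0.0296%, 0.0169% as higher and 0.0127% as lower. An unadjusted p under 0.05 was found for 1484 of 23675 genes, so 0 of 9 says little about these enzymes. The fitted differences, HBG1 minus non-targeting, ran from -0.34 for ALDH1L2 to 0.12 for PHGDH. For SHMT2 the 95% interval was -0.21 to 0.12 and for PSAT1 -0.10 to 0.34, while for ALDH1L2 it was as wide as -0.87 to 0.19. PHGDH and SHMT1 took the opposite sign without HBG1 sgRNA rapamycin replicate 1, and MTHFD1 without non-targeting rapamycin replicate 1.

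The interaction is the rapamycin change with the HBG1 sgRNA minus that with the non-targeting sgRNA. It was not called for any of the 9 (0 called by edgeR, 0 at an unadjusted p under 0.05 and 0 by DESeq2). Of all genes, edgeR called 0.00422%. An unadjusted p under 0.05 was found for 678 of 23675 genes, so here too 0 of 9 says little. Interactions ran from -0.35 for ALDH1L2 (95% interval -1.19 to 0.49) and -0.16 for PHGDH (-0.77 to 0.46) to 0.05 for MTHFD2 (-0.23 to 0.33). For PSAT1 the interaction was 0.02 (-0.32 to 0.37) and for SHMT2 -0.05 (-0.31 to 0.22). The non-targeting DMSO group has 1 library, which was assumed to vary like the other groups. Under DMSO, without a test, the 9 differences between guides lay between -0.07 for PSPH and 0.28 for PHGDH.

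Levels were compared between genes as CPM per kilobase of exon, here the union of annotated exons. In the HBG1 sgRNA DMSO libraries MTHFD2 was highest at 29.4 ± 2.13 (SD, n = 3), followed by SHMT2 at 24.5 ± 0.51, PSAT1 at 24.4 ± 0.76 and MTHFD1L at 23.7 ± 0.43, whose ranges overlap. MTHFD1 followed at 14.2 ± 0.48, then PSPH at 5.46 ± 0.91, SHMT1 at 4.17 ± 0.18, PHGDH at 2.46 ± 0.40 and ALDH1L2 at 1.01 ± 0.06. The ranges of PHGDH and ALDH1L2 did not meet those of their neighbours, while PSPH reached down to 4.42, just above the highest SHMT1 library at 4.37.

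Under rapamycin PSAT1 dropped behind MTHFD1L in that order, at 12.0 ± 0.48 against 16.2 ± 0.63 (SD, n = 3). The order depended on the length used. Per kilobase of the principal transcript, a measure added after the data were seen, SHMT2 (46.6 ± 0.97) and MTHFD1 (42.3 ± 1.43) stood first under DMSO, ahead of MTHFD1L (33.02 ± 0.60) and MTHFD2 (32.1 ± 2.33), and PHGDH stood at 8.77 ± 1.43, above PSPH at 6.92 ± 1.15. ALDH1L2 was lowest by both lengths.

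The ratio of SHMT2 to SHMT1 per kilobase of exon was 5.79, 5.66 and 6.14 in the HBG1 sgRNA DMSO libraries and 4.22, 4.80 and 4.48 under rapamycin. With the non-targeting sgRNA it was 6.01 under DMSO and 4.85 and 4.58 under rapamycin, so every rapamycin library lay below every DMSO library. MTHFD2 to MTHFD2L, a related mitochondrial enzyme that was not called itself (log2 fold change -0.15, adjusted p 0.457, edgeR), was 10.3, 9.33 and 10.1 under DMSO and 7.25, 8.64 and 8.27 under rapamycin with the HBG1 sgRNA. In the non-targeting libraries it was 11.0 under DMSO and 8.09 and 6.85 under rapamycin. The ratio of MTHFD1L to MTHFD1, both of which fell, was 1.68 ± 0.09 under DMSO and 1.56 ± 0.01 under rapamycin (SD, n = 3 each). These ratios are descriptions and were not tested. The size of each ratio depends on the length used, while its relative change with treatment does not. Per kilobase of the principal transcript MTHFD1L stood below MTHFD1 in the HBG1 sgRNA DMSO libraries, at 33.02 against 42.3.

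**Figure D3:**
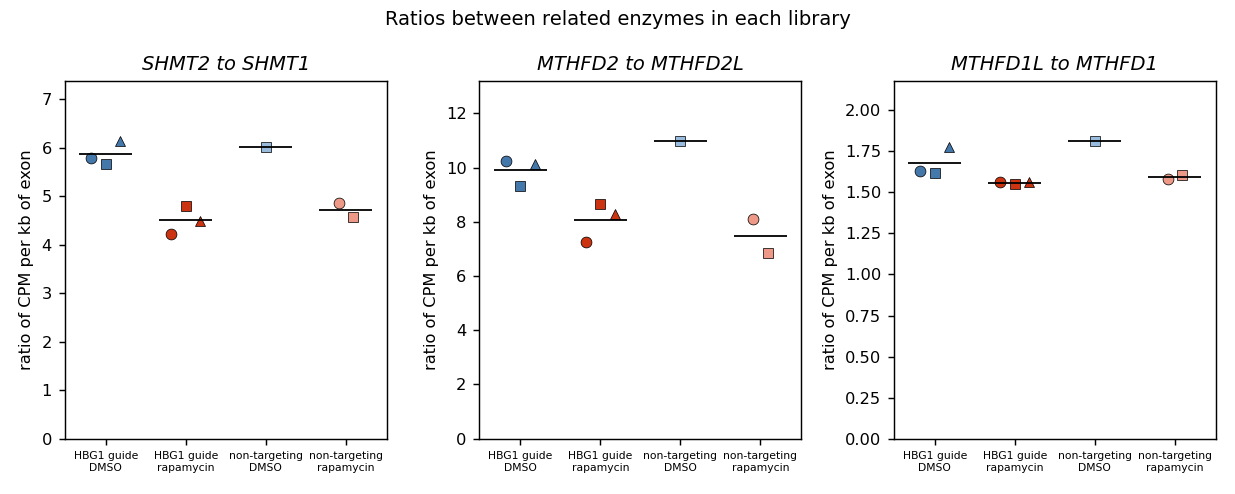
Ratio of levels per kilobase of exon between related enzymes, by library, on linear axes from 0; symbols mark replicate numbers and bars group means. SHMT2 to SHMT1 is 5.66 to 6.14 under DMSO and 4.22 to 4.85 under rapamycin over both guides, and MTHFD2 to MTHFD2L is 9.33 to 11.0 and 6.85 to 8.64. Exon length is the union of annotated exons, and the size of each ratio depends on it.

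Of 15 folate cycle and transport genes, 14 were tested and 1 fell, with a median log2 fold change of -0.06. SLC25A32, which carries folate into mitochondria, fell from 51.7 ± 1.5 to 33.2 ± 1.96 CPM (SD, n = 3 each), by 0.64 on the log2 scale (SE 0.08, adjusted p 3.88e-04, edgeR). With the replicate block 3 genes of this list fell.

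Of 4 genes of the glycine cleavage system, 3 were tested and 0 were called by edgeR, and 1, GCSH, was lower with the replicate block (-0.29, adjusted p 0.0336). Of 9 genes of the methionine cycle and transsulfuration, 8 were tested and 3 fell, with a list median of -0.18. CBS, which joins serine to homocysteine, fell from 266 ± 26.5 to 173 ± 19.8 CPM (SD, n = 3 each), by 0.62 on the log2 scale (SE 0.09, adjusted p 9.24e-04, edgeR). MAT2A, which makes S-adenosylmethionine, fell by 0.38 (adjusted p 0.00348), and MTRR, which reactivates methionine synthase, by 0.37 (adjusted p 0.0191, edgeR). MTRR lost its call without HBG1 sgRNA rapamycin replicate 2 or 3 or DMSO replicate 1, with adjusted p up to 0.0895.

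All 16 genes of serine and glycine transport and use were tested, of which 3 fell, 1 rose and 12 were not called, with a median of -0.17. SDSL, a serine dehydratase-like gene, rose from 14.1 ± 1.54 CPM to 26.0 ± 1.47 (SD, n = 3 in each group), by 0.88 on the log2 scale (SE 0.11, adjusted p 3.14e-04, edgeR). In the non-targeting libraries SDSL stood at 17.0 CPM in the DMSO library and averaged 22.8 ± 0.15 CPM in the rapamycin ones (SD, n = 2). SLC1A5, a neutral amino acid transporter, fell by 0.40 on the log2 scale (adjusted p 0.00182), SFXN1, which carries serine into mitochondria, by 0.32 (adjusted p 0.0167), and SARS1, the cytosolic seryl-tRNA synthetase, by 0.24 (adjusted p 0.0441, edgeR). The SFXN1 call was lost without HBG1 sgRNA rapamycin replicate 3 or DMSO replicate 2 (adjusted p up to 0.0999), and that of SARS1 under 10 of its 15 alternatives, among them each fit that left out 1 library other than the non-targeting DMSO library. With the replicate block 6 genes of this list fell and 1 rose.

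**Figure D4:**
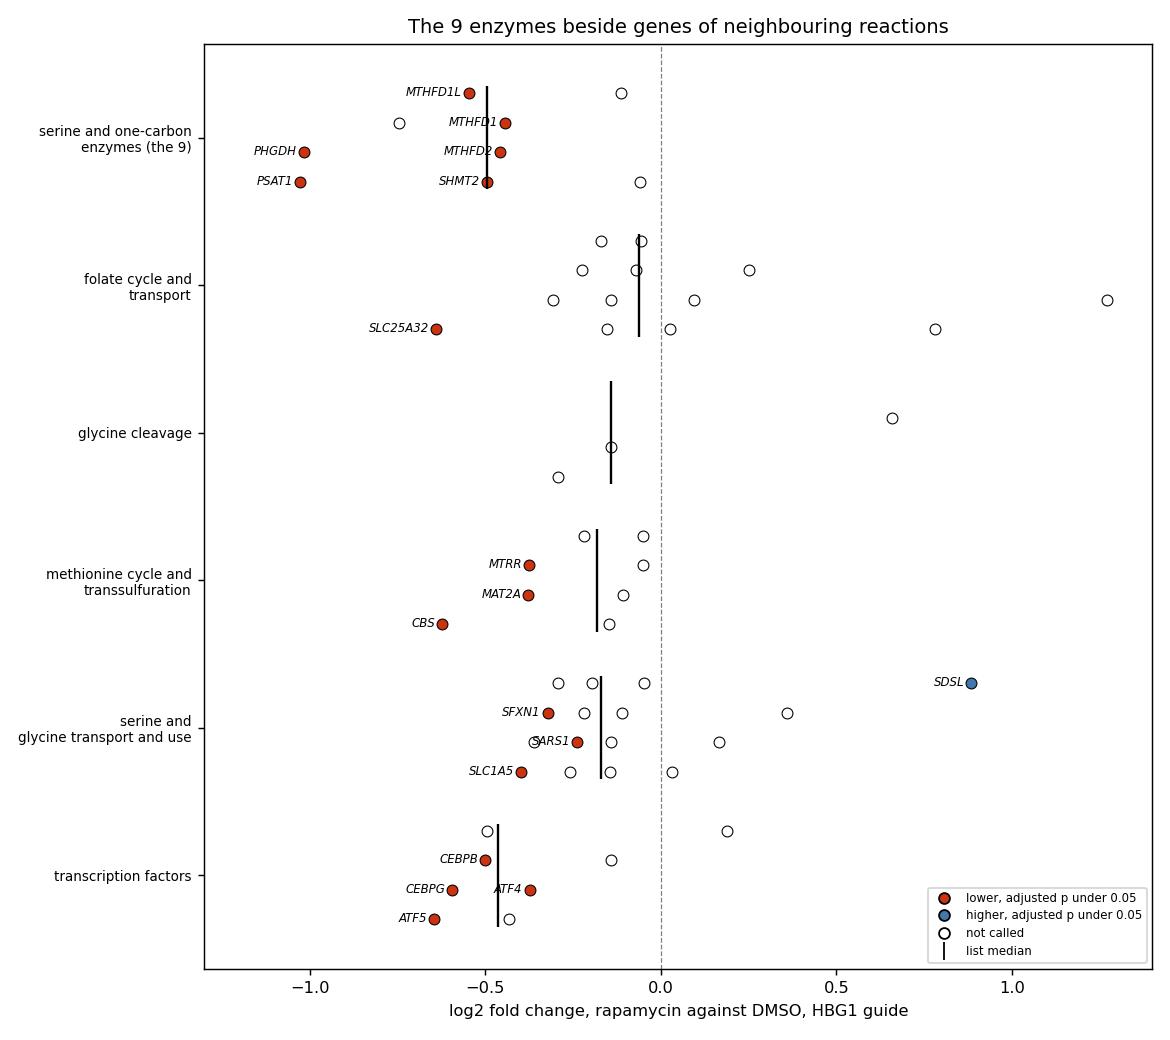
Rapamycin-to-DMSO log2 fold change (HBG1 sgRNA) in the 9 enzymes and in genes of 5 neighbouring lists; each point is a gene, named and coloured where its adjusted p is under 0.05, and vertical bars are the medians of all genes tested in a list. The median of the 9 enzymes is -0.49, that of the 8 transcription factors -0.46, and those of the other lists lie between -0.18 and -0.06.

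Among 8 transcription factors known to act on these genes, 4 fell, 0 rose and 4 were not called, with a median of -0.46. ATF5 fell by 0.65 on the log2 scale (adjusted p 0.00198), CEBPG by 0.59 (adjusted p 0.00322) and CEBPB by 0.50 (adjusted p 0.0179, edgeR). ATF4 fell from 251 ± 18.6 to 194 ± 32.4 CPM (SD, n = 3 in each group), by 0.37 on the log2 scale (SE 0.10, adjusted p 0.0316, edgeR). The ATF4 call was lost under 8 of its 15 alternatives, where adjusted p lay between 0.0539 and 0.135. These included leaving out HBG1 sgRNA rapamycin replicate 2 or 3, any one HBG1 sgRNA DMSO replicate or either non-targeting rapamycin library. CEBPB lost its call without HBG1 sgRNA rapamycin replicate 2 or 3 or DMSO replicate 1 or 3 (adjusted p up to 0.105). MYC was not called, at 226 ± 18.9 and 257 ± 8.03 CPM (log2 fold change 0.19, adjusted p 0.15, edgeR), and passed as higher with the replicate block (0.20, adjusted p 0.0315). With that block 5 of the list fell and 1 rose. The fifth was DDIT3, named after its values were seen, at -0.50 in both fits (adjusted p 0.0520 without the block and 0.00151 with it, edgeR).

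The 9 enzymes were also compared with one another across the 9 libraries, as a description. The correlation of each gene's log2 CPM with the mean standardised level of the other 8 was 0.98 for MTHFD1L, 0.97 for MTHFD1, 0.96 for PSAT1, 0.95 for PHGDH, SHMT2 and MTHFD2, 0.79 for ALDH1L2, 0.73 for SHMT1 and 0.05 for PSPH. These libraries fall into treated and untreated sets, so the values mainly order the genes by how clearly they follow treatment. Of 11490 other genes averaging 3 or more on the log2 CPM scale, the 8 whose profile was most like the mean of the 9 enzymes were YARS (r 0.995), SNHG1, GARS, DDIT4, PWP1, STIP1, HNRNPR and NCL (0.988). YARS and GARS are aminoacyl-tRNA synthetase genes, SNHG1 hosts small nucleolar RNAs, DDIT4 encodes an inhibitor of mTORC1 and NCL is nucleolin. The 8 were chosen for likeness to the enzymes' mean, which was lower under rapamycin, so their negative direction follows from the choice. Their log2 fold changes under rapamycin with the HBG1 sgRNA ran from -1.55 for DDIT4 and -0.82 for YARS to -0.30 for HNRNPR.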

How the data were processed

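The table deposited by the authors holds raw read counts, whole numbers for each Ensembl gene in each library, with columns matched to samples by the labels' description and title. The submitters' processing notes name STAR 2.7.3a, featureCounts, Subread 2.0.0 and GRCh38. Annotation release, strand setting and treatment of multi-mapping reads are not given in the sources used here. Symbols, positions and exon lengths come from GENCODE 29, in which 99.47% of IDs were found.

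Genes were filtered with filterByExpr (minimum count 10), scaled by TMM and tested with edgeR 4.0.16 (glmQLFit, glmQLFTest, 1 mean per group over all 9 libraries, R 4.3.3). Standard errors are the log2 fold change over the square root of F. Whether replicate numbers pair libraries was checked from deviations from the group means. Same-numbered HBG1 sgRNA libraries correlated at 0.553, 0.278 and 0.232, above the limit of 0.1. Rapamycin replicate 2 with DMSO replicate 3 (0.258) and rapamycin replicate 3 with DMSO replicate 2 (0.194) also passed that limit. The other differently numbered pairs, all with replicate 1, ran from -0.407 to -0.324. The check therefore sets replicate 1 apart and does not show that numbers 2 and 3 pair libraries. The block fit is an alternative given where it changes a call. Across guides same-numbered libraries correlated at -0.068 and -0.069. The fits were tested on simulated data. Alternatives were RLE size factors, DESeq2 1.42.0, no filter, fewer groups, a block, an additive model and leaving out each library. All 9 members are named, with up to 4 called genes per neighbouring list by absolute log2 fold change, the isoenzymes MTHFD2L and ALDH1L1, ATF4 and MYC, and the 8 genes most like the members. Members and lists were chosen with earlier results of these data known. No protein sequences were used here. One gene of the folate cycle and transport list is not reported here; the median of that list includes it.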

Additional observations from a re-analysis of the deposited data

How the results depend on the processing

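With the HBG1 sgRNA, PHGDH, PSAT1, SHMT2, MTHFD1, MTHFD2 and MTHFD1L were lower and called in each of 15 other settings (adjusted p at most 0.0168), and 6 or 7 of the 9 enzymes were called in each fit. The seventh, ALDH1L2, passed under 5 of its 15 alternatives (adjusted p 0.00258 to 0.192 over all). Its 74 to 283 counts per library limit its precision. PSPH ran from -0.191 to 0.0220 when 1 library was left out. Over all genes the count of 1609 became 3441 with the replicate block and 3263 in the additive model, and ran from 664 to 1731 when 1 library was left out, with the lowest values without HBG1 sgRNA DMSO replicate 2 (664) or 3 (749) or rapamycin replicate 3 (693). The cause was not tested.

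Between guides under rapamycin, 0 of the 9 enzymes were called in any fit. Over all genes the 7 calls became 91 without a filter, 13 with DESeq2 and 11 with the replicate block, and ran from 3 to 8 when 1 library was left out. Enzymes that were not called changed sign in single fits: over the fits that left out 1 library PHGDH ran from -0.0670 to 0.228, SHMT1 from -0.0104 to 0.0541 and MTHFD1 from -0.0748 to 0.00556. For the interaction 0 of the 9 were called in any fit, and the 1 call over all genes became 8 without a filter, 0 with DESeq2, 3 with the replicate block and 5 with blocks nested in guides, and ran from 0 to 4 when 1 library was left out. With the replicate block over all 9 libraries the interaction was 0.0346 for PHGDH, -0.00317 for PSAT1, 0.00417 for PSPH and 0.0131 for MTHFD1L. With the nested blocks, added once the data had been seen, it was -0.0682 for PSAT1 and 0.0163 for MTHFD1L. Leaving out 1 library gave -0.0678 to 0.121 for PSAT1, -0.151 to 0.0693 for PSPH, -0.0509 to 0.0213 for SHMT1 and -0.0444 to 0.0184 for MTHFD1L. The block changed no other call on the 9 enzymes than that of ALDH1L2.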
